A study of Mus musculus with 14 samples.

Results

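Ddit3, Ppp1r15a, Sesn2, Hspa1a and Hspa1b, 5 stress response genes, were followed in RNA-seq libraries of transplanted mouse hematopoietic stem cells (HSCs) in an ageing and a clusterin (Clu) knockout experiment. They were listed by name, and are 5 of the 1573 genes held in either of the deposited tables. Ddit3, Ppp1r15a and Hspa1b were held for both experiments and were 3 of the 53 genes held in both. Sesn2 was held for ageing only and Hspa1a for the Clu knockout only. The 4 members held for ageing had higher mean levels in aged than in young HSCs, a direction the table appears selected for. Ddit3, Ppp1r15a, Hspa1a and Hspa1b were lower in aged HSCs that had received guides against Clu.

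For the ageing comparison, old HSCs (oHSCs) from donors over 18 months old (o_Tx, n = 4 libraries) were set against young HSCs (yHSCs) from donors of 2 months (y_Tx, n = 3). These donors were taken to be wild-type C57BL/6J from the study's list of mice. The sample titles do not give their genotype. For the knockout, oHSCs of Rosa26-Cas9 donors aged 24 months were infected with lentivirus carrying guides against Clu (o_sgClu, n = 4) or a control guide (o_sgCtrl, n = 3), so both groups carried Cas9 and the vector. All donor cells went into CD45.1 recipients of 2 months, and donor HSCs were sorted from bone marrow 4 months later and amplified by SMART-Seq, a full-length method for few cells. The Clu guides were delivered as a pool of 3 and infected cells were chosen by the mCherry of the vector, which marks infection and not an edit. The Clu transcript itself is not among the genes of the knockout table used here, so the o_sgClu label was not checked against it. Nothing in the labels ties a library to a separate animal, so p-values measure the spread between these libraries, which may be partly technical.

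The integrated stress response starts when kinases that sense misfolded protein, amino acid shortage, viral RNA or heme loss phosphorylate eIF2, the factor that brings the initiator tRNA to the ribosome. General translation then falls while the transcription factor ATF4 is translated better and turns on its targets. Ddit3 (CHOP) is a transcription factor of that programme, Ppp1r15a (GADD34) brings a phosphatase to eIF2 and so ends the response, and Sesn2 (sestrin 2) restrains the growth kinase complex mTORC1. Hspa1a and Hspa1b encode nearly identical forms of the inducible chaperone HSP70, the classic targets of the heat shock factor HSF1. HSCs are known for low protein synthesis and for close control of protein quality.

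On GRCm38, Ddit3 lies at chr10:127290774-127296288 on the + strand, and the other 4 genes lie on the - strand, Ppp1r15a at chr7:45522916-45526268, Sesn2 at chr4:132492032-132510501, Hspa1a at chr17:34969190-34972156 and Hspa1b at chr17:34956436-34959238. All 5 are protein-coding. Hspa1a and Hspa1b are neighbours, 9951 bases apart, and 58.8% of the 50-base words of the Hspa1a transcript also stand in Hspa1b, so their reads can be split between them and their sum is given beside them. Exons of Ddit3 overlap Mars and Gm4189, those of Ppp1r15a overlap Tulp2 and those of Hspa1a overlap Gm20481, each on the opposite strand. SMART-Seq does not keep the strand, so reads in those overlaps cannot be told apart.

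The 250 bases before the RefSeq start (GRCm38.p6, written 5′ to 3′ on the strand of the gene) are shown for the 4 members that were lower in o_sgClu, to show which elements each window carries. They span chr10:127290543-127290792 (+) for Ddit3, chr7:45526269-45526518 (-) for Ppp1r15a, chr17:34972157-34972406 (-) for Hspa1a and chr17:34959239-34959488 (-) for Hspa1b. Capitals mark a match to an AP-1 site (TGANTCA), a cyclic AMP response element (TGACGTCA), a heat shock element (GAANNTTC or TTCNNGAA) or a CCAAT box (CCAAT, found here as ATTGG on the other strand).
Ddit3: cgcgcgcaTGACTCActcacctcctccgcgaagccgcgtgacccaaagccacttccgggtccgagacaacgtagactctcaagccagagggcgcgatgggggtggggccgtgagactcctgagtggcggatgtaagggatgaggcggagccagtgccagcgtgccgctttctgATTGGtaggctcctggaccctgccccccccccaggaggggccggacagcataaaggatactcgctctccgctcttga
Ppp1r15a: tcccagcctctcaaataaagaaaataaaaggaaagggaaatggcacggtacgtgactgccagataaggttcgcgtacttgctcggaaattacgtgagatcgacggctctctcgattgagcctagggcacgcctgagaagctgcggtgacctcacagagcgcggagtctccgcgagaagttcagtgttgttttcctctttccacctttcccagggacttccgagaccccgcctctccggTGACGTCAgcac
Hspa1a: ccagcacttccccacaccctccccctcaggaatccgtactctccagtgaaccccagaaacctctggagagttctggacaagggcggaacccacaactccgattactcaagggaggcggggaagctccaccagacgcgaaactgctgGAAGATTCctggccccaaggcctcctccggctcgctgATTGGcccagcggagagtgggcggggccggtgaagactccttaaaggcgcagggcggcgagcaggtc
Hspa1b: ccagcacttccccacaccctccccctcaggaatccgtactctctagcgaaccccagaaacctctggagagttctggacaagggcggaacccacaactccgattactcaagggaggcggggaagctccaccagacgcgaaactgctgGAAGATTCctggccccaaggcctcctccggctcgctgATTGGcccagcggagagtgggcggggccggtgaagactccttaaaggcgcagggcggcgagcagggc

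The Hspa1a and Hspa1b windows differed at 3 of 250 bases (98.8% identity). Each held a GAANNTTC heat shock element 104 to 97 bases before the start and an inverted CCAAT box 67 to 63 bases before it. Of 32851 promoter windows of this length, 6.69% held GAANNTTC, 7.17% held TTCNNGAA and 12.8% held either, searched on both strands. The Ppp1r15a window held TGACGTCA 12 to 5 bases before the start, an element found in 1.55% of windows. The Ddit3 window held TGACTCA, a form of the AP-1 site, 242 to 236 bases before the start, and an AP-1 site stood in 6.75% of windows. Ddit3 also held 1 inverted CCAAT box and Sesn2, whose window is not printed, held 2, against 33.8% of windows with at least 1. The C/EBP-ATF element TGATGNAA, bound by ATF4 with a partner, stood in 3.45% of windows and in none of the 5, which says only that these letters are not in this stretch. These matches are descriptions of the letters.

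Levels are given in FPKM (the unit taken for the deposited values, in which fragments are scaled to transcript length and to the mapped fragments of a library), which can be compared between genes. A gene was called when limma on log2(FPKM + 1) gave an unadjusted two-sided p below 0.05 and an absolute log2 fold change over 0.5, and adjusted p-values are Benjamini-Hochberg values over the whole table. The tables hold only part of the genes, 1043 for ageing and 583 for Clu, so p-values describe selected lists. The ageing table holds as many genes as the study reports as upregulated in transplanted oHSCs, from these same libraries. A higher level in oHSCs thus appears to be largely a condition of entry. For ageing, the direction, its p-values and the separation of groups are therefore not independent outcomes. The Clu table holds fewer genes than the study called, and how they were chosen is not given. Summed over these genes, the values ran from 71628 to 84123 FPKM in o_Tx, 42199 to 54607 in y_Tx, 10841 to 12502 in o_sgClu and 17005 to 18573 in o_sgCtrl. Such sums are not sequencing depths, and the depth is unknown. Of 12 HSC markers, Procr, Slamf1 and Vwf were held for ageing and Procr and Fgd5 for Clu, with mean levels above 0 in every group, while no B cell marker was held in either table. Procr (0.90 ± 0.30, log2 fold change ± SE) and Slamf1 (0.75 ± 0.31) were called higher in o_Tx, with Vwf at 0.57 ± 0.29 and not called. Procr was called lower in o_sgClu (-0.76 ± 0.32), with Fgd5 at -0.63 ± 0.31 and not called, and the part of these markers in the results below was not tested. In bulk RNA, fewer cells of a type and less RNA per cell cannot be told apart.

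The first comparison asked how transplanted oHSCs differ from yHSCs. Ddit3 and Ppp1r15a, the integrated stress response genes with high levels, rose in oHSCs on the deposited scale. Neither was called under any of 3 scalings over the listed genes. Ddit3 was then at 0.079 to 0.28, and Ppp1r15a turned lower under 2 of the 3. Hspa1b rose by the unadjusted limit only. Sesn2 stood higher in every oHSC library than in any yHSC library but did not pass. In all, 3 of the 4 members held were called higher, against 62.5% of all 1043 genes, and 2 of 4 at an adjusted p below 0.05, against 37.3%. The share of called members was therefore near that of the table. With replicate numbers as pairs, 2 of 4 members and 752 of the 1043 genes were called higher.

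Ddit3 stood at 139.9, 200.8, 138.4 and 175.0 FPKM in o_Tx replicates 1 to 4 and at 88.3, 79.2 and 82.6 FPKM in y_Tx replicates 1 to 3. Every oHSC library lay above every yHSC library, with a gap of 50.1 FPKM, and the yHSC libraries were close together. The means were 163.5 ± 30.1 and 83.4 ± 4.57 FPKM (SD, n = 4 and 3), 1.96-fold apart. The log2 fold change was 0.95 ± 0.22 (SE, adjusted p = 0.0142, limma). Of the table, 76.6% of genes changed by no more than Ddit3 in that direction.

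Ppp1r15a, whose product reverses eIF2 phosphorylation, stood at 75.5, 107.6, 62.7 and 74.6 FPKM in o_Tx and at 41.7, 59.8 and 44.2 FPKM in y_Tx. The groups did not overlap, but o_Tx replicate 3 was only 2.95 FPKM above y_Tx replicate 2. The means were 80.1 ± 19.2 and 48.5 ± 9.80 FPKM (SD, n = 4 and 3), and the log2 fold change was 0.70 ± 0.25 (SE, adjusted p = 0.0486, limma). That equals the median of all genes in the table, also 0.70. Without y_Tx replicate 1 the value was 0.60 and no longer called (unadjusted p = 0.0692, limma).

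Sesn2 stood at 0.615, 0.382, 0.551 and 0.235 FPKM in o_Tx and at 0.168, 0.0937 and 0.141 FPKM in y_Tx. It was the least abundant member, with a lower mean level than all but 4.51% of the table, and the groups did not overlap. The means were 0.446 ± 0.171 and 0.134 ± 0.0377 FPKM (SD, n = 4 and 3), 3.32-fold apart. On the log2(FPKM + 1) scale, which compresses values under 1, the difference was 0.34 ± 0.20 (SE, 95% interval -0.11 to 0.79, adjusted p = 0.144, limma) and it was not called. With a pseudocount of 0.1 it was 1.17 (adjusted p = 0.0306, limma), which passed.

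Hspa1b stood at 1.25, 2.29, 1.67 and 1.95 FPKM in o_Tx and at 0.866, 0.525 and 1.42 FPKM in y_Tx. The groups overlapped, since y_Tx replicate 3 lay above o_Tx replicate 1. The means were 1.79 ± 0.444 and 0.936 ± 0.450 FPKM (SD, n = 4 and 3) and the log2 fold change was 0.54 ± 0.24 (SE, unadjusted p = 0.0481, adjusted p = 0.0763, limma). The replicate block, which treats equal replicate numbers as pairs and so takes nothing from the unpaired o_Tx replicate 4, gave 0.51 (adjusted p = 0.110, limma) and did not call it. The call also ended on leaving out o_Tx replicate 2 (0.46), 3 (0.56) or 4 (0.51), or y_Tx replicate 1 (0.53) or 2 (0.38).

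**Figure D1:**
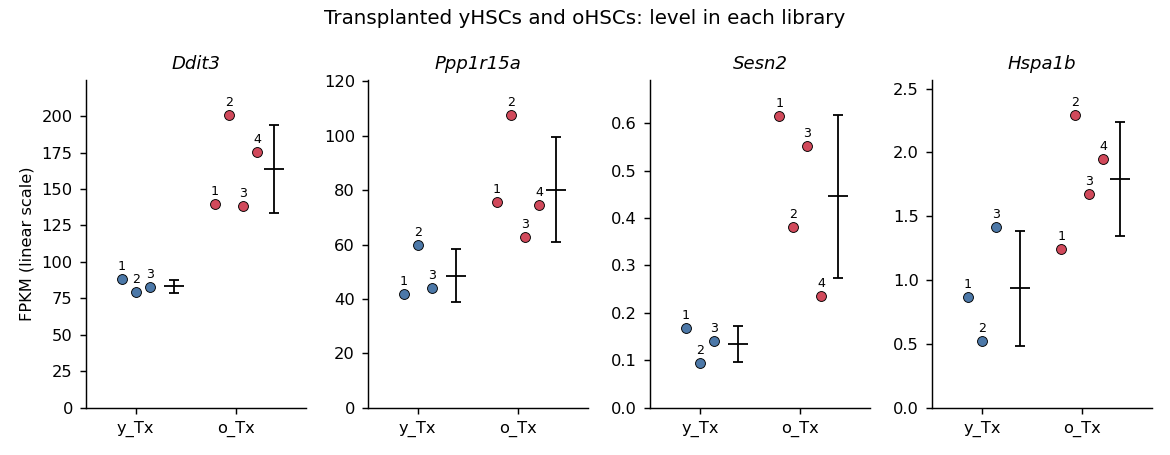
Level of 4 genes in each library of transplanted yHSCs (y_Tx, n = 3) and oHSCs (o_Tx, n = 4), in FPKM on linear axes from 0, with replicate numbers beside the points and bars for mean ± SD. The groups separate for Ddit3, Ppp1r15a and Sesn2, and overlap for Hspa1b, where y_Tx replicate 3 (1.42 FPKM) lies above o_Tx replicate 1 (1.25 FPKM).

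In both ageing groups the order of levels was Ddit3, Ppp1r15a, Hspa1b, Sesn2, and within each library the neighbours kept that order. Ddit3, Ppp1r15a and Sesn2 separated the groups completely, as did 49.7% of all genes in the table. Over 35 assignments of libraries to groups, an exact permutation test (two-sided) on the means gave p = 0.0571 for each of these 3 genes, the smallest value possible when the smaller tail is doubled, and p = 0.114 for Hspa1b. Counted by the size of the difference, the exact permutation p was 0.0286 for Ddit3, 0.0571 for Ppp1r15a and Sesn2 and 0.0857 for Hspa1b. Rescaling every library to a common level over the 1043 genes moved the median of all genes from 0.70 to between 0.033 and 0.19 and ended the 3 calls, with Ddit3 at 0.079 to 0.28, Hspa1b at 0.039 to 0.17 and Ppp1r15a at -0.16 to 0.041. Since nearly all genes of this table lay higher in oHSCs, such scaling by construction removes what they share.

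The genes of these pathways were taken from lists written from general knowledge of each pathway, with earlier results of these data known. The lists also hold the followed genes, so list counts are not independent of them. Of 38 transcription factors and targets of the integrated stress response, 6 were held for ageing, among them Ddit3, Ppp1r15a and Sesn2. Of these 6, 5 were called higher, against 62.5% of all genes, with a list median log2 fold change of 1.20 against 0.70. Asns, the asparagine synthetase that ATF4 induces, rose from 8.47 ± 1.37 to 27.3 ± 5.52 FPKM (log2 fold change 1.57 ± 0.24, SE). Nupr1, a stress-induced chromatin protein, rose from 36.8 ± 12.4 to 98.6 ± 12.1 FPKM (1.45 ± 0.27), and Cebpb, a transcription factor of myeloid differentiation that also pairs with CHOP, rose from 30.7 ± 9.68 to 83.3 ± 15.6 FPKM (1.45 ± 0.28). Adjusted p-values (limma) of these 3 genes lay between 0.00223 and 0.00718. Each of the 3 scalings called 114 to 151 of all 1043 genes higher. Asns, Nupr1 and Cebpb stayed called under each scaling, where Ddit3 and Ppp1r15a did not. Asns was then at 0.75 to 0.94 (adjusted p = 0.0207 to 0.0461, limma), while Nupr1 and Cebpb were at 0.59 to 0.79 with adjusted p-values (limma) from 0.0780 to 0.177.

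Of 14 genes for eIF2 kinases, eIF2, eIF2B and their phosphatase partners, only Eif2b1 was held. This subunit of the exchange factor that recharges eIF2 stood at 69.3 ± 14.2 FPKM in o_Tx and 39.6 ± 9.45 FPKM in y_Tx and was called higher with overlapping groups (0.79 ± 0.26), and turned to -0.016 and -0.067 under 2 scalings. Of 22 genes of the unfolded protein response of the endoplasmic reticulum, 4 were held. Of these, 2 were called higher, against 62.5% of all genes, with a list median of 0.69 against 0.70. Pdia4, a disulfide isomerase, and Hspa5, the chaperone BiP, were called higher (0.74 ± 0.25 and 0.65 ± 0.25, adjusted p = 0.0457 and 0.0559, limma). Pdia3 (0.75 ± 0.36) and Herpud1 (0.64 ± 0.31) were not called, while the replicate block called all 4 higher, as it did 752 of all 1043 genes. Hspa5 was no longer called without o_Tx replicate 1 (0.56), o_Tx replicate 2 (0.58) or y_Tx replicate 3 (0.52), and the number called ran from 1 to 4 as single libraries were left out. Scaling brought the list median from 0.69 to between -0.17 and 0.036 and left none of the 4 called.

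Of 39 heat shock factors and chaperones, 5 were held for ageing and 4 were called higher, against 62.5% of all genes, with a list median of 0.91 against 0.70. At an adjusted p below 0.05 it was 3 of 5, against 37.3% of all genes. Besides Hspa1b they included Cryab, a small heat shock protein listed at 0 in all 3 yHSC libraries and at 2.59 ± 0.797 FPKM in oHSCs, and Ubb, which encodes a ubiquitin precursor. Ubb rose from 1981 ± 821 to 3792 ± 564 FPKM (1.02 ± 0.31, adjusted p = 0.0314, limma), and without y_Tx replicate 3 its log2 fold change was 0.65 (adjusted p = 0.0895, limma). Dnajb6, a cochaperone, was not called (0.45 ± 0.22) except with the replicate block (0.52). Under each scaling Cryab alone stayed called. Hspa1b had the lowest level of the 5 in oHSCs.

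Markers of other blood cells were also held for ageing, and their counts are to be read against the 62.5% of all genes called higher. The 6 of 15 neutrophil and monocyte markers held summed to between 6984 and 10137 FPKM in o_Tx and between 3489 and 4438 FPKM in y_Tx, and 5 were called higher. Of 8 mast cell and basophil markers, 5 were held and called higher, and Cma1, Tpsb2 and Mcpt4 were at 0 in every yHSC library. Of 10 erythroid markers 5 were held and 4 called, and of 6 megakaryocyte markers 3 were held and called. Their part in the higher level of Ddit3, Ppp1r15a and Hspa1b was not tested.

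The second comparison asked what loss of Clu changes in transplanted oHSCs. Ddit3, Ppp1r15a, Hspa1a and Hspa1b were all lower in o_sgClu than in o_sgCtrl, with mean levels 1.76-fold to 6.56-fold apart. All 4 members held were called lower, against 50.1% of all 583 genes, and all 4 at an adjusted p below 0.05, against 48.2%. In all 4 the groups did not overlap, as in 52.5% of all genes.

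Ddit3 stood at 44.2, 55.6, 62.4 and 55.3 FPKM in o_sgClu replicates 1 to 4 and at 141.8, 105.1 and 148.6 FPKM in o_sgCtrl replicates 1 to 3. The lowest control library was 42.7 FPKM above the highest o_sgClu library. The means were 54.4 ± 7.54 and 131.8 ± 23.4 FPKM (SD, n = 4 and 3), 2.42-fold apart. The log2 fold change was -1.26 ± 0.18 (SE, adjusted p = 0.00279, limma), the 29th most lowered of 583. It stayed called lower under all 17 alternative settings.

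Ppp1r15a stood at 35.1, 53.4, 51.1 and 60.3 FPKM in o_sgClu and at 100.8, 82.7 and 80.3 FPKM in o_sgCtrl. The means were 49.99 ± 10.6 and 87.9 ± 11.2 FPKM (SD, n = 4 and 3), and the gap between the groups was 20.1 FPKM. The log2 fold change was -0.82 ± 0.20 (SE, adjusted p = 0.0115, limma), against a median of -0.52 over all genes. Scaling over the listed genes moved that median to between -0.12 and -0.072 and Ppp1r15a to between -0.24 and -0.18, no longer called. Under the same scalings Ddit3 stayed called, at -0.68 to -0.62.

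Hspa1a stood at 0.183, 0.334, 0.220 and 0.0672 FPKM in o_sgClu and at 1.37, 1.40 and 1.19 FPKM in o_sgCtrl. The control libraries were close together, and each was more than 0.85 FPKM above the highest o_sgClu library. The means were 0.201 ± 0.110 and 1.32 ± 0.113 FPKM (SD, n = 4 and 3), 6.56-fold apart, and the log2 fold change was -0.95 ± 0.13 (SE, adjusted p = 0.00236, limma). Both levels are low, and with a pseudocount of 0.1 the log2 fold change was -2.31.

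Hspa1b stood at 0.968, 0.280, 0.598 and 0.253 FPKM in o_sgClu and at 2.56, 2.72 and 1.90 FPKM in o_sgCtrl. The means were 0.525 ± 0.335 and 2.39 ± 0.437 FPKM (SD, n = 4 and 3), 4.56-fold apart, and the log2 fold change was -1.17 ± 0.19 (SE, adjusted p = 0.00397, limma). Hspa1b over Hspa1a was between 1.60 and 1.95 in the control libraries and between 0.839 and 5.29 in o_sgClu, where both genes are low. The transcripts are 2967 (Hspa1a) and 2803 (Hspa1b) bases long, so the sum of both genes depends little on how reads were split between them. How reads that fit both genes were counted is not given. If they were left out, the levels of both genes and of the sum would be understated. The sum was 0.726 ± 0.349 in o_sgClu and 3.71 ± 0.550 FPKM in o_sgCtrl (SD, n = 4 and 3). Its log2 fold change was -1.46 ± 0.19 (SE, adjusted p = 0.00203, limma), and like Hspa1b alone it stayed called in all 17 alternatives.

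**Figure D2:**
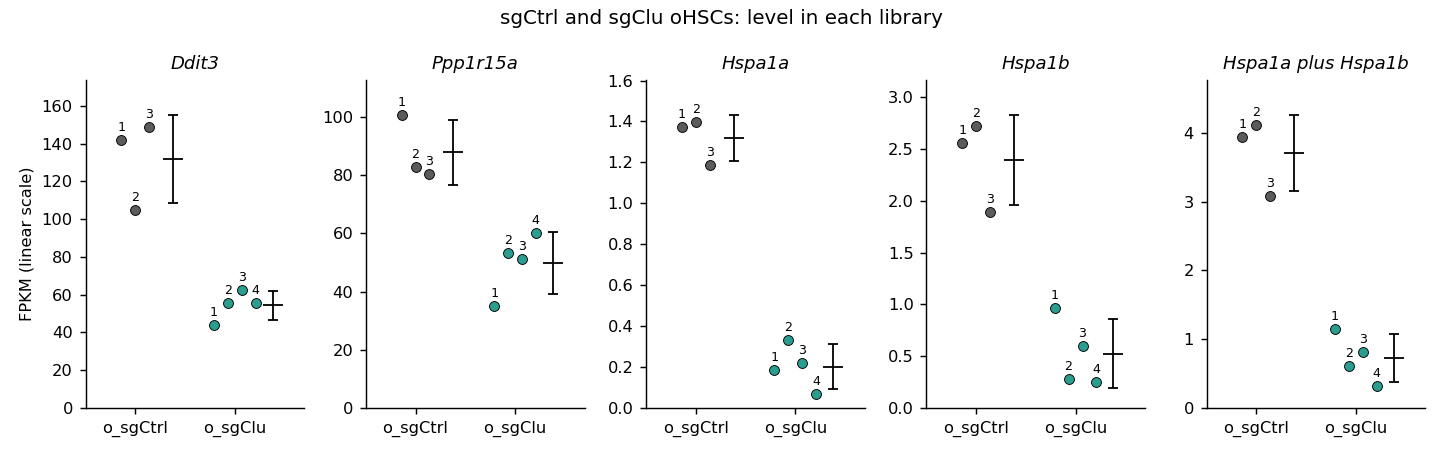
Level of 4 genes, and of Hspa1a plus Hspa1b, in each library of control oHSCs (o_sgCtrl, n = 3) and Clu-guide oHSCs (o_sgClu, n = 4), in FPKM on linear axes from 0, with replicate numbers and mean ± SD. No o_sgClu library reaches the lowest control library in any panel.

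An exact two-sided permutation test over 35 assignments gave p = 0.0571 for each of the 4 genes and for the sum with the smaller tail doubled, and p = 0.0286 by the size of the difference, the smallest each form can give. The order of levels in both knockout groups was Ddit3, Ppp1r15a, Hspa1b, Hspa1a by mean. In o_sgClu, Ddit3 and Ppp1r15a had overlapping levels, as did Hspa1b and Hspa1a, while in o_sgCtrl neither pair of neighbours overlapped.

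**Figure D3:**
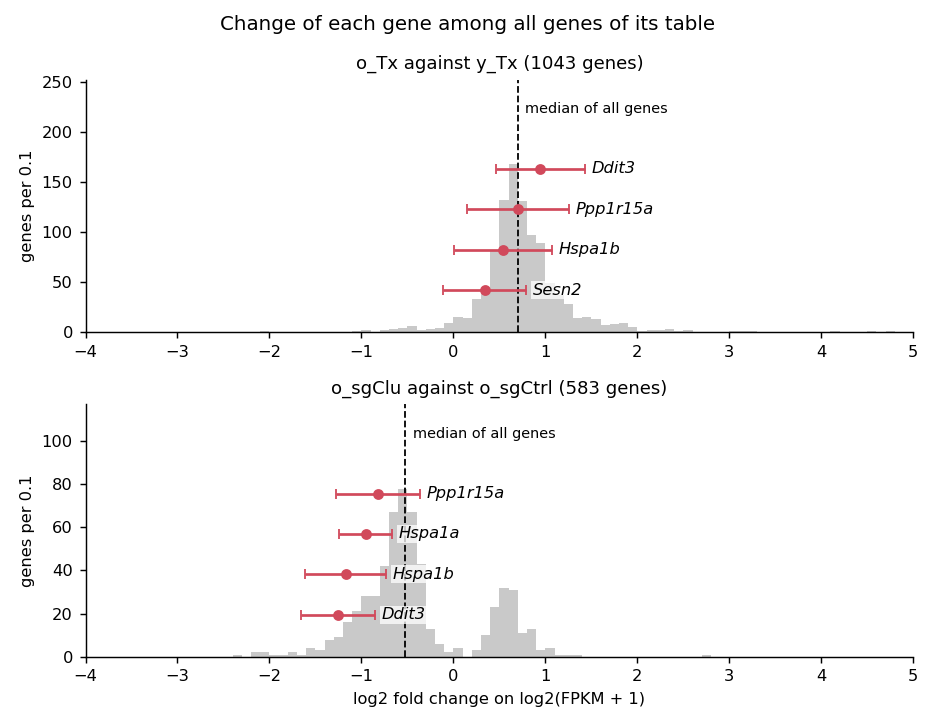
Histograms of the log2 fold change of all genes in each table, in bins of 0.1, with each member as a point and its 95% interval, and the median of all genes as a dashed line. For ageing the members lie on both sides of the median (0.70), and for Clu all 4 lie below it (-0.52), from Ppp1r15a at -0.82 to Ddit3 at -1.26.

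Of the same 38 transcription factors and targets of the integrated stress response, 8 were held for Clu, among them Ddit3 and Ppp1r15a. All 8 were called lower, against 50.1% of all genes, with a median log2 fold change of -0.94 against -0.52. Trib3, a pseudokinase induced by ATF4 and CHOP, fell from 2.98 ± 1.65 to 0.593 ± 0.555 FPKM (-1.31 ± 0.34). Gdf15, a secreted stress cytokine, fell from 8.84 ± 3.86 to 2.87 ± 0.712 FPKM (-1.29 ± 0.26). Atf3, a stress-induced transcription factor that is also an immediate early gene, fell from 20.6 ± 10.1 to 9.08 ± 2.19 FPKM (-1.02 ± 0.31), and was at -0.67 without o_sgCtrl replicate 1. Cebpb (-0.86 ± 0.23) and Trib1 (-0.84 ± 0.20) fell too, and adjusted p-values (limma) of these 5 genes lay between 0.00714 and 0.0230. Under each of the 3 scalings 3 of the 8 stayed called, Ddit3, Trib3 (-0.98 to -0.96) and Gdf15 (-0.81 to -0.76). The scalings called 56 to 70 of all 583 genes lower. Over all 17 alternative settings, adjusted p-values (limma) reached 0.0768 for Trib3 and 0.0613 for Gdf15.

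The eIF2 list had 2 genes here, which moved in opposite directions. Eif2s1, the eIF2 subunit that is phosphorylated, rose from 67.8 ± 1.97 to 100.7 ± 7.27 FPKM (0.56 ± 0.12, adjusted p = 0.00775, limma). Ppp1r15b, the constitutive partner of the same phosphatase as Ppp1r15a, fell from 5.96 ± 1.64 to 3.69 ± 0.649 FPKM (-0.55 ± 0.19, adjusted p = 0.0309, limma), but was no longer called without o_sgCtrl replicate 1 (-0.37) or o_sgClu replicate 4 (-0.47). Under the scalings Eif2s1 was at 1.14 to 1.20 and still called, and Ppp1r15b at -0.070 to -0.020 and not. None of the 22 unfolded protein response genes was held, and of 39 heat shock genes only Hspa1a and Hspa1b. A gene that is not held was not analysed here, which does not say that it did not change. Of 13 sestrin and mTORC1 brake genes only Castor2 was held, at 0.219 ± 0.0857 against 0.467 ± 0.245 FPKM, and it was not called (-0.26 ± 0.15).

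**Figure D4:**
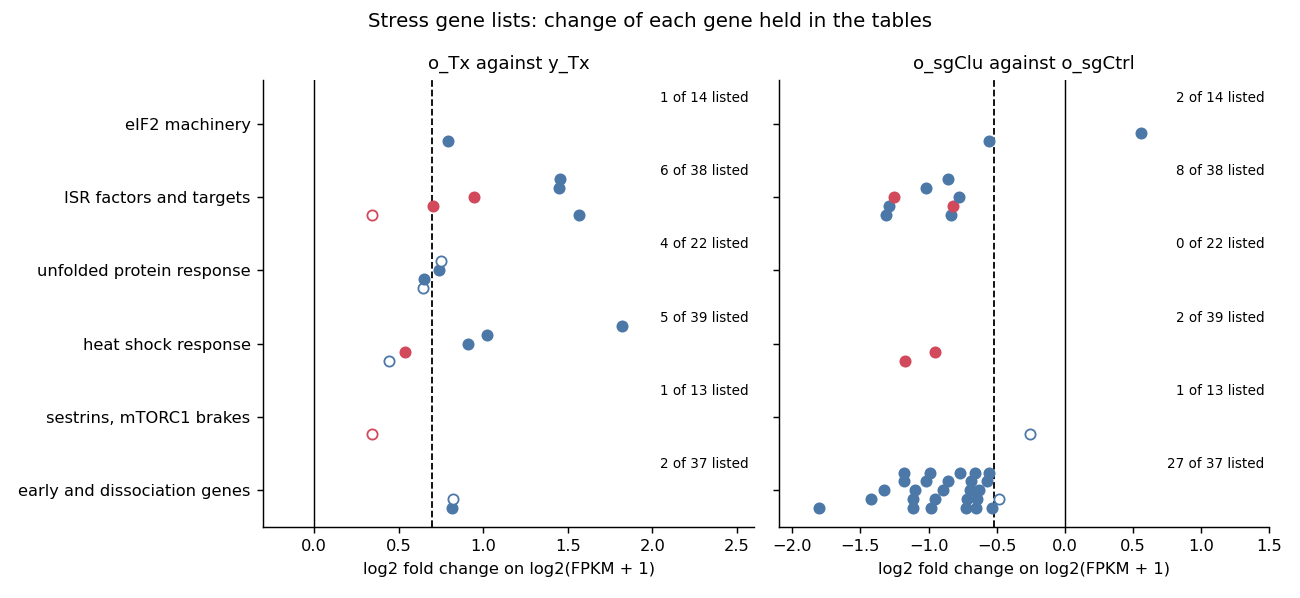
Log2 fold change of every list gene held in the ageing table (left) and the Clu table (right), 1 row per list, with filled points for called genes, open points for genes not called, red for the followed genes and blue for others. The dashed line is the median of all genes and the text gives how many of each list were held. Nearly all early and dissociation genes that were held lie below 0 in o_sgClu and were called, 26 of 27, against 50.1% of all genes called lower.

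Other transcripts moved with the stress genes in the knockout libraries. Of 37 immediate early genes, which cell isolation is known to induce, 27 were held and 26 were called lower, against 50.1% of all genes, with a median of -0.86 against -0.52. Their sum was 1258 to 1715 FPKM in o_sgClu and 2281 to 3214 FPKM in o_sgCtrl. The largest changes were those of the AP-1 gene Fosl2 (-1.80 ± 0.17), the nuclear receptor genes Nr4a3 (-1.42 ± 0.22), Nr4a1 (-1.33 ± 0.20) and Nr4a2 (-1.18 ± 0.14), Klf4 (-1.18 ± 0.25) and Btg2 (-1.12 ± 0.19). Under the scalings 6 to 8 of the 27 stayed called, and 56 to 70 of all 583 genes were called lower. The part of these genes in the lower level of Ddit3, Ppp1r15a, Hspa1a and Hspa1b was not tested. For ageing 2 of the 37 were held, Gadd45g, which rose (0.81 ± 0.28) but was at -0.011 under TMM scaling, and Ccn1, which was not called (0.82 ± 0.49).

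The 4 of 15 neutrophil and monocyte markers held for Clu summed to 118.1 to 230.0 FPKM in o_sgClu and 323.0 to 512.7 FPKM in o_sgCtrl, and 3 were called lower, against 50.1% of all genes. The mast cell proteases Tpsb2 and Mcpt4 were at 0 in all o_sgClu libraries and in o_sgCtrl replicate 2, and summed to at most 42.5 FPKM in o_sgCtrl. The part of either cell type in the lower level of Ddit3, Ppp1r15a, Hspa1a and Hspa1b was not tested.

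By the root mean square difference of centred log2(FPKM + 1) over the 7 libraries of a table, the genes most like Ppp1r15a in the knockout were Fos (0.105), Jun (0.121) and H1f2 (0.137). Those most like Ddit3 were Rabgef1 (0.116), Gm26532 (0.122) and Cish (0.136). Hspa1a was closest to Ccrl2 (0.101), Stk17b (0.118) and Malt1 (0.130), and Hspa1b to Stk17b (0.213), 1700109H08Rik (0.218) and Ier5 (0.236). In the ageing table, Ddit3 was closest to 1700029J07Rik (0.0991), Rorb (0.108) and Traip (0.126), and Ppp1r15a to Pyroxd2 (0.121), Bambi (0.125) and Slc35a4 (0.127). Sesn2 was closest to H2az1 (0.0645), BC016579 (0.0675) and Adam3 (0.0796), and Hspa1b to R3hcc1 (0.109), Gm10419 (0.124) and Cish (0.128). Likeness on this scale reflects the group difference and the level as well as the pattern of single libraries.

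The 2 experiments share no library, and how their values were scaled to FPKM is not given, so levels are set side by side without a test. Ddit3 averaged 163.5 FPKM in o_Tx, 131.8 in o_sgCtrl, 83.4 in y_Tx and 54.4 in o_sgClu. Ppp1r15a averaged 80.1, 87.9, 48.5 and 49.99 FPKM in the same order, and Hspa1b 1.79, 2.39, 0.936 and 0.525 FPKM. For each gene both groups of oHSCs without Clu guides had the higher means. For ageing that order appears to be largely a condition of entry, and the genes were chosen with earlier results known. The order is therefore not an independent outcome. The experiments may also differ in donor genotype and donor age, and lentivirus is described for the knockout only.

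**Figure D5:**
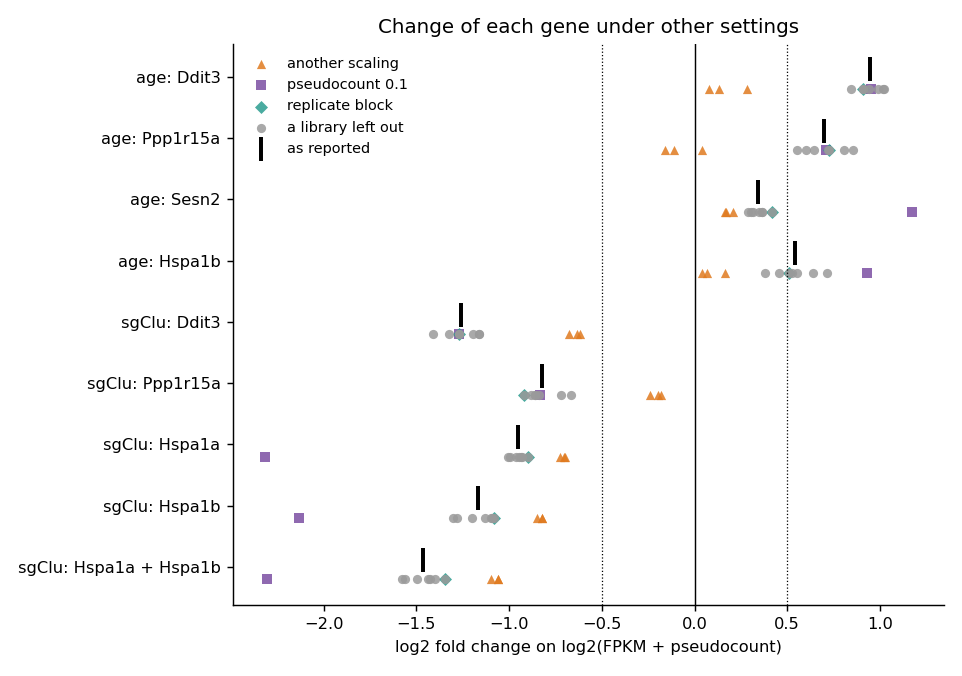
Log2 fold change of each member as reported (black bar) and under other scalings (triangles), a pseudocount of 0.1 (squares), the replicate block (diamonds) and each library left out in turn (circles). Dotted lines mark the limits of -0.5 and 0.5. For ageing the 3 scalings bring Ddit3, Ppp1r15a and Hspa1b between -0.16 and 0.28, and for Clu Ddit3, Hspa1a, Hspa1b and the sum stay below -0.5 throughout.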

How the data were processed

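HSC libraries were made with SMART-Seq v4 and sequenced on an Illumina NextSeq. Per the study's methods, the authors used TrimGalore for trimming, Hisat2 for alignment (mm10), FeatureCounts for counting and DESeq2 for calling genes. The values the authors deposited were read as FPKM, scaled to transcript length and library size, although no header names a unit and TPM is possible. The annotation and the step from counts to FPKM are not given in the sources used here.

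The 5 genes and the lists, written from general knowledge, were chosen with earlier results of these data known. Named genes are the 5 members, up to 6 genes per list by absolute log2 fold change, and the 3 nearest patterns per member. Cyr61 was matched under its present symbol Ccn1. The design allowed for counts, and limma 3.58.1 (R 4.3.3) on log2(FPKM + 1) was the test planned for normalized values, checked on simulated data. Means of single genes were compared with SciPy 1.17.1 (exact permutation test, with the smaller tail doubled or counted by size). Each table was tested alone. Same-numbered libraries, numbered in the sample titles, correlated at 0.405, 0.163 and 0.161 across genes for age, and the replicate block read them as pairs. The differently numbered o_Tx replicate 4 and y_Tx replicate 3 correlated at 0.191, so the pairing is uncertain beyond replicate 1. The main fit was unpaired. Positions come from GENCODE M21, promoters from RefSeq, both on GRCm38, and all 5 symbols matched. A list gene that is counted but not named is not reported here.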

Additional observations from a re-analysis of the deposited data

How the results depend on the processing

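For ageing, scaling each library by median of ratios, TMM or column totals gave 124, 114 and 151 genes called higher in place of 652, and 54, 62 and 40 called lower in place of 10. Under the same scalings, in that order, the log2 fold change was 0.13, 0.079 and 0.28 for Ddit3, -0.11, -0.16 and 0.041 for Ppp1r15a and 0.067, 0.039 and 0.17 for Hspa1b, and none was called. For Clu they gave 59, 56 and 70 genes called lower in place of 292, and Ppp1r15a at -0.20, -0.18 and -0.24, not called. These factors, computed over genes selected mostly in one direction, remove a shared shift by construction. With adjusted p-values 389 genes were called higher for ageing, and Hspa1b (0.54) was not. A log2 fold change limit of 1 left 197 higher and 2 lower for ageing and 7 higher and 69 lower for Clu, and ended the calls of Ddit3 (0.95), Ppp1r15a (0.70) and Hspa1b (0.54) for ageing and of Ppp1r15a (-0.82) and Hspa1a (-0.95) for Clu. Requiring 1 FPKM in the mean of some group left Hspa1b for ageing at 0.54, not called, and gave no value for Sesn2. The pseudocount of 0.1 raised Sesn2 to 1.17, called.

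Named list genes and list counts were recomputed after the data had been seen. For ageing, median of ratios, TMM and column totals turned Hspa5 to -0.17, -0.22 and -0.014, Herpud1 to -0.17, -0.22 and -0.017 and Dnajb6 to -0.37, -0.42 and -0.22. Median of ratios and TMM turned Eif2b1 to -0.016 and -0.067, Pdia3 to -0.066 and -0.12 and Pdia4 to -0.027 and -0.075, and TMM turned Gadd45g to -0.011.

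Leaving out each library in turn gave 405 to 655 genes called higher for ageing, the lowest without y_Tx replicate 3, and 8 to 13 called lower. Ddit3 ran from 0.84 to 1.02, Ppp1r15a from 0.55 to 0.86, Sesn2 from 0.29 to 0.42 and Hspa1b from 0.38 to 0.71. For Clu, 69 to 98 genes were called higher and 241 to 295 lower. There Ddit3 ran from -1.41 to -1.16, Ppp1r15a from -0.92 to -0.66, Hspa1a from -1.005 to -0.90, Hspa1b from -1.30 to -1.08 and the sum of both from -1.58 to -1.34, called each time.

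The replicate block takes nothing from the unpaired replicate 4 of o_Tx or o_sgClu. For ageing it gave 752 genes higher against 652 and Hspa1b 0.51, not called, and changed no other call of a member. For Clu, the correlations between libraries of equal number were -0.103, 0.073 and 0.058, too low to read the numbers as pairs, and the block gave 65 genes higher and 270 lower against 90 and 292 and changed no call of a member. Hspa1a and the Hspa1 sum for ageing, and Sesn2 for Clu, were not analysed here, since the tables do not hold them. The unknown depth limits Sesn2, Hspa1a and Hspa1b most, whose levels lie near or under 1 FPKM.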

Other observations

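Ddit3 and Ppp1r15a, which stand at similar levels, can be compared within a library. Ddit3 over Ppp1r15a was 1.85, 1.87, 2.21 and 2.35 in the o_Tx libraries and 2.12, 1.33 and 1.87 in the y_Tx libraries, so the ageing groups overlapped. It was 1.26, 1.04, 1.22 and 0.918 in the o_sgClu libraries and 1.41, 1.27 and 1.85 in the o_sgCtrl libraries, where the lowest control value was just above the highest o_sgClu value. This ratio was chosen after the values were seen, and it was not tested.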
